A study of Rattus norvegicus with 30 samples.

Results

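Messenger RNA of 9 circadian clock genes was measured in the livers of 30 rats, 24 of them taken 24 hours after a partial hepatectomy or a sham operation. The genes were chosen by name: 10 were listed (Per1, Per2, Per3, Cry1, Cry2, Nr1d1, Nr1d2, Dbp, Tef and Clock), and a gene entered where its probe sets carried exactly 1 gene symbol in the platform annotation. This gave 9 genes with 1 probe set each, out of 18166 named genes, and Nr1d2 was not analysed here. All animals were wildtype Wistar rats, with 6 in each of 5 groups. The groups were a 30%, 70% or 90% partial hepatectomy (PH30, PH70 and PH90, the surgical removal of that share of the liver), a sham operation, and no operation, the last called a control operation in the study's design. RNA of each liver was hybridised to its own Affymetrix Rat Gene 2.0 ST array, and rats are called by their numbers. The source of a probe set's signal is whole liver, so fewer cells of a type and less RNA per cell cannot be told apart.

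Each value of a gene in a liver is a log2 value (scale inferred from RMA processing) relative to that gene's own median over the 30 arrays. A value of 1 is therefore a doubling over the median rat, and differences between rats are kept. The level of a gene is lost by this centring, so no clock gene can be ranked against another by abundance, and the labelled tissue could not be checked against the abundance of liver markers. The hour of the day at which tissue was taken is not given for any rat. Clock genes change with the hour, and the part of time of day in every difference below was not tested.

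The circadian clock is a transcriptional feedback loop that runs in nearly every cell, the hepatocyte included. CLOCK (or its relative NPAS2 in its place) pairs with BMAL1 and switches on genes through the E-box, among them the period genes Per1, Per2 and Per3 and the cryptochromes Cry1 and Cry2, whose proteins then repress CLOCK and BMAL1. A second loop runs through the nuclear receptor NR1D1, also called REV-ERB alpha, which represses Bmal1, while the ROR receptors activate it. DBP and TEF are output factors that bind the D-box, where NFIL3 opposes them, and in liver they are known to drive genes of bile acid, lipid and drug metabolism.

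Promoters of these genes were searched for the elements through which clock factors are known to act. The windows run from 250 bases before to 50 bases after a transcription start and are RefSeq sequences of the rat assembly GRCr8, written 5′ to 3′ on the gene's strand. Of the 9 measured genes, 8 had a promoter in the table, 10 starts in all, and Cry1 is named only. Capitals mark the letters searched on both strands: the E-box CACGTG, the E-prime box CACGTT, the D-box (TTATGTAA or TTACGTAA) and the core AGGTCA of the ROR and REV-ERB element. AACGTG is the E-prime box read from the other strand. The 5 clock gene promoters shown are those that hold any of these motifs, and Bmal1 is shown because it is the target of Nr1d1 and the partner of Clock.
Tef, chr7:115206577-115206876, plus strand: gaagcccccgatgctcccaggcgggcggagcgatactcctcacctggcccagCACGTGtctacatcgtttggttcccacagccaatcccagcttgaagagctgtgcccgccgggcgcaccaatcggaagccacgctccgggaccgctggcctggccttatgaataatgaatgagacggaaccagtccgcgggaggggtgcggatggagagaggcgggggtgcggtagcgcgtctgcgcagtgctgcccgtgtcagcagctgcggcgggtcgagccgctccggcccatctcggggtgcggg
Per2, chr9:99496944-99497243, minus strand: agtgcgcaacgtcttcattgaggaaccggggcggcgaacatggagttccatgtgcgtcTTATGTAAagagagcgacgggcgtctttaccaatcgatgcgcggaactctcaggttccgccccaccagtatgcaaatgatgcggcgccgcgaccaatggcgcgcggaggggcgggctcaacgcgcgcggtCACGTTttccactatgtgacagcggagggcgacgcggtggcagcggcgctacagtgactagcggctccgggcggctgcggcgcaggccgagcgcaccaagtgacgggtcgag
Cry2, chr3:98860388-98860687, minus strand: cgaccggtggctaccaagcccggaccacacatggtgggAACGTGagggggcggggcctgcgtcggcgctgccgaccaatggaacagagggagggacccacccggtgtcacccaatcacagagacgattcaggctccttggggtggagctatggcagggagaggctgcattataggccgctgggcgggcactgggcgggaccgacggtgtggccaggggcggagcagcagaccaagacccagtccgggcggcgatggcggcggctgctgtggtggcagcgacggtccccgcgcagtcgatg
Nr1d1 (upstream start), chr10:84231763-84232062, minus strand: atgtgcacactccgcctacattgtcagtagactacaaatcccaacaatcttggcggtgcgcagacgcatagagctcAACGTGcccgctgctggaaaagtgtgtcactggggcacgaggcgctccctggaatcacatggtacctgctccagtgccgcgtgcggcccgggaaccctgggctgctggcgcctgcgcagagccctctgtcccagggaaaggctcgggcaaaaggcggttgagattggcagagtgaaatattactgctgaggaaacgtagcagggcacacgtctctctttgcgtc
Nr1d1 (downstream start), chr10:84229405-84229704, minus strand: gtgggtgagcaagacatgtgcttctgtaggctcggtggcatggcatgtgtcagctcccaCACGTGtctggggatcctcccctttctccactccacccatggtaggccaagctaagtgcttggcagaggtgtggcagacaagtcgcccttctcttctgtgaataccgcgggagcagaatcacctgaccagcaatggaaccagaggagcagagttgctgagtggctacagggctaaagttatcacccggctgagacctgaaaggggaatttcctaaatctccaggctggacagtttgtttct
Bmal1, chr1:176766078-176766377, plus strand: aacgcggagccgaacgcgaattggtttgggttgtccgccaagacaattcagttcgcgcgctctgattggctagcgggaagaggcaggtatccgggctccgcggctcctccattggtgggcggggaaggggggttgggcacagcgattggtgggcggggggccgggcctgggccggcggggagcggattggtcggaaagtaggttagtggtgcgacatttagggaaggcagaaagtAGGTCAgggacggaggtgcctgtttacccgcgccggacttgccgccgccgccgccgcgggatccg

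An E-box was found in 2 of the 8 genes, at -198 in Tef and at -191 before the downstream start of Nr1d1, counted from the transcription start. An E-prime box was found in 3, at -62 in Per2, at -212 in Cry2 and at -174 before the upstream start of Nr1d1. Per2 also held a D-box at -192. The core AGGTCA was found in 0 of the 8 and lay at -15 in Bmal1. Among 33469 rat promoters of the same length, 6.42% held the E-box, 4.83% the E-prime box, 1.01% the D-box and 16.2% the core AGGTCA. These shares are per promoter, whereas the counts above are per gene, with 10 promoters searched for the 8 genes. The genes are few, and these matches describe letters in a window and not occupied sites.

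PH90 livers had more Per1 and Per3 and less Cry2 and Tef than sham livers, while Per2, Cry1, Nr1d1, Dbp and Clock did not pass the test. Each gene was tested with limma across all 30 arrays and the p adjusted over all 18166 genes, and called at an adjusted p below 0.05. The 4 called clock genes of 9 stand beside 34.6% of all genes called in the same comparison, so the clock genes were called at a share near that of genes at large. The median difference of the 9 genes was 0.06 on the log2 scale, against 0.00 over all genes. All 4 called genes still overlapped between PH90 and sham livers in at least 1 rat.

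**Figure D1:**
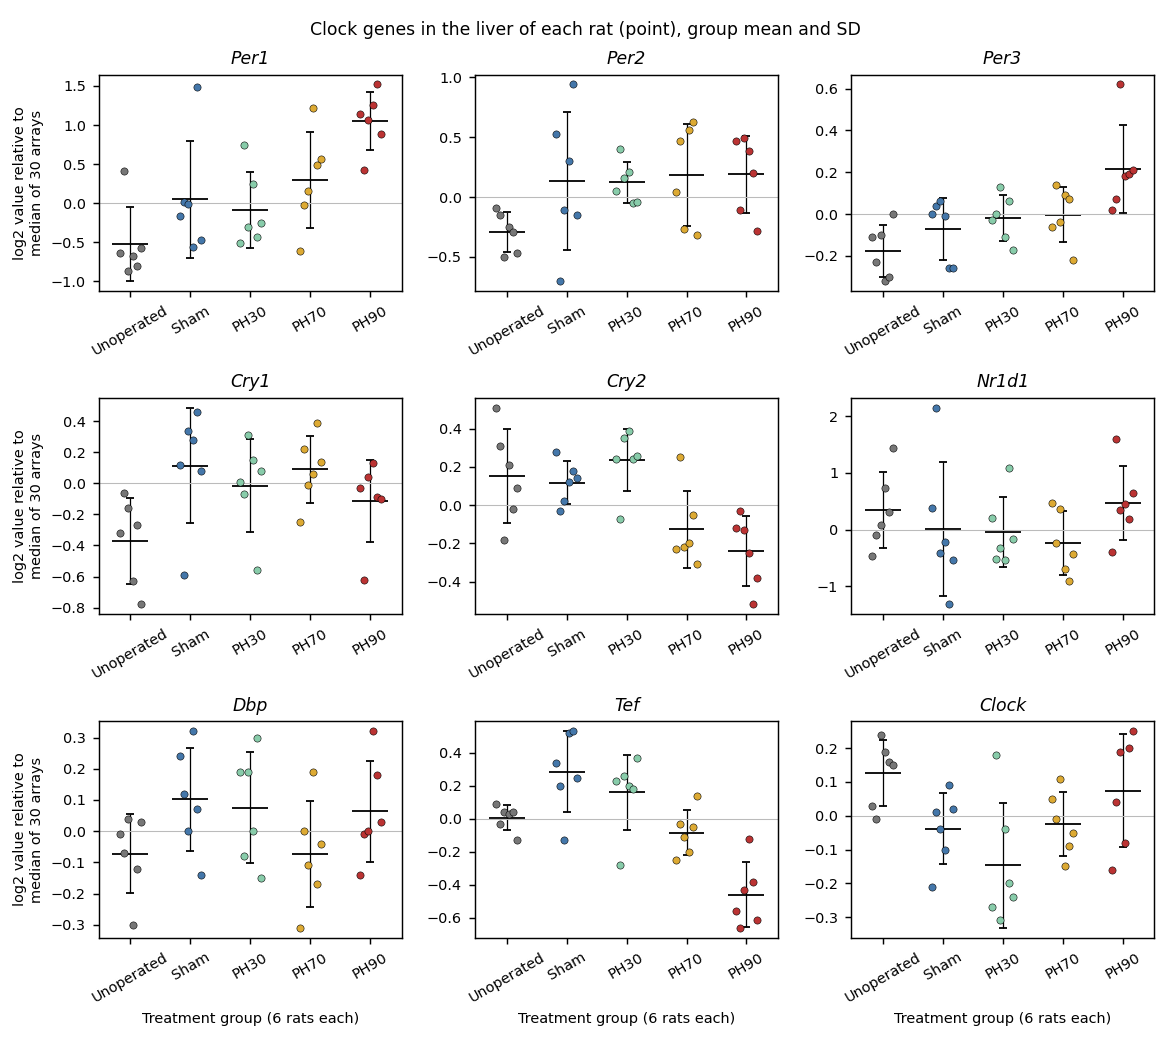
Log2 value of each of the 9 clock genes relative to its median over 30 arrays (vertical axis) in every rat (points) of the 5 groups (horizontal axis), with the group mean and SD. The 6 PH90 livers lie between 0.42 and 1.52 for Per1 and between -0.66 and -0.12 for Tef, whereas Nr1d1 spreads from -1.32 to 2.15 within the sham group alone.

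Per1 (probe set 17647373) is the period gene that responds to acute signals such as glucocorticoids as well as to the clock itself. Its lowest, median and highest values were -0.87, -0.66 and 0.41 in unoperated livers, -0.56, -0.09 and 1.49 in sham livers, -0.51, -0.28 and 0.75 in PH30 livers, -0.61, 0.33 and 1.22 in PH70 livers, and 0.42, 1.10 and 1.52 in PH90 livers. All 6 PH90 livers lay above the sham mean, and the overlap came from sham rat 141 at 1.49, the other 5 sham livers lying at 0.01 or below. Per1 averaged 1.05 ± 0.37 in PH90 livers and 0.05 ± 0.74 in sham livers (SD, n = 6 each), a difference of 1.0 (SE 0.30, limma adjusted p = 0.009). Against unoperated livers the difference was 1.57 (SE 0.30, limma adjusted p = 8.8e-05), with no overlap, as was the case for 20.3% of all genes. PH90 livers also exceeded PH30 livers in Per1, by 1.13 (SE 0.30, limma adjusted p = 0.0038). The difference of 0.75 between PH90 and PH70 livers did not pass (SE 0.30, limma adjusted p = 0.071), although all 6 PH90 livers lay above the PH70 mean. Without PH90 rat 43, the lowest of its group, it measured 0.87 (SE 0.31, limma adjusted p = 0.037). Leaving out the rat nearest the other group enlarges a difference by construction, so that value is no support for it.

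Per2 (probe set 17866453), the period gene whose protein is a core repressor, was called in none of the 10 pairwise comparisons by limma, and it passed an unadjusted p of 0.05 in 4 of them. Its lowest, median and highest values were -0.50, -0.27 and -0.09 in unoperated livers, -0.70, 0.10 and 0.94 in sham livers, -0.05, 0.11 and 0.40 in PH30 livers, -0.32, 0.26 and 0.63 in PH70 livers, and -0.28, 0.29 and 0.49 in PH90 livers. The 4 operated groups each had a higher median than the unoperated one, and the sham group alone spanned a wider range than any other. The PH30 and unoperated livers did not overlap, as was the case for 5.07% of all genes, yet the difference of 0.41 missed the threshold (SE 0.20, limma adjusted p = 0.2). Against sham, PH90 livers differed by 0.06 in Per2 (95% interval -0.35 to 0.47).

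Per3 (probe set 17812917) is a period gene that is dispensable for rhythm in mice. It ranged from 0.02 to 0.62 with a median of 0.18 in PH90 livers and from -0.26 to 0.06 with a median of -0.01 in sham livers. The highest PH90 value belonged to rat 61, and the other 5 PH90 livers lay at 0.21 or below. Per3 averaged 0.21 ± 0.21 in PH90 livers and -0.07 ± 0.15 in sham livers (SD, n = 6 each), a difference of 0.29 (SE 0.09, limma adjusted p = 0.0087). The 6 PH90 livers lay above all 6 unoperated livers, which ran from -0.32 to 0.00. Groups without overlap made up 20.3% of all genes in that comparison, and the Per3 difference was 0.39 (SE 0.09, limma adjusted p = 4.8e-04).

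The cryptochromes repress together with the period proteins, and the 2 genes differed here in which groups separated. Cry2 (probe set 17774671) had lowest, median and highest values of -0.18, 0.15 and 0.51 in unoperated livers, -0.03, 0.13 and 0.28 in sham livers, -0.07, 0.25 and 0.39 in PH30 livers, -0.31, -0.21 and 0.25 in PH70 livers, and -0.52, -0.19 and -0.03 in PH90 livers. PH90 livers thus lay almost wholly below sham livers and touched them at -0.03. Cry2 was lower in PH90 than in sham livers by a log2 difference of -0.36 (SE 0.10, limma adjusted p = 0.0071), with 6 of 6 rats below the sham mean. It was lower in PH90 than in PH30 livers by -0.47 (SE 0.10, limma adjusted p = 5.7e-04) and than in unoperated livers by -0.39 (SE 0.10, limma adjusted p = 0.0033). PH70 livers differed from sham livers in Cry2 by -0.25 (SE 0.10, limma adjusted p = 0.1), which did not pass. Without PH70 rat 58, the highest of its group, the difference was -0.32 (SE 0.10, limma adjusted p = 0.026). Removal of that rat must enlarge the difference, so the second value is no support for it.

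Cry1 (probe set 17827164) had lowest, median and highest values of -0.78, -0.30 and -0.06 in unoperated livers, -0.59, 0.20 and 0.46 in sham livers, -0.56, 0.05 and 0.31 in PH30 livers, -0.25, 0.10 and 0.39 in PH70 livers, and -0.62, -0.06 and 0.13 in PH90 livers. The unoperated livers were the lowest group and none of the 3 resected groups was called against sham. Its 1 call was PH70 against unoperated livers, 0.46 higher (SE 0.16, limma adjusted p = 0.042). That call was lost when any 1 of 9 rats was left out (PH70 rats 58, 59, 97, 136 and 139, unoperated rats 145, 150, 151 and 152), with adjusted p up to 0.12 over all alternatives tried.

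Nr1d1 (probe set 17660843) encodes the receptor that represses Bmal1, and it was the most variable clock gene between rats of the same group. Its lowest, median and highest values were -0.46, 0.21 and 1.44 in unoperated livers, -1.32, -0.31 and 2.15 in sham livers, -0.53, -0.25 and 1.08 in PH30 livers, -0.90, -0.33 and 0.47 in PH70 livers, and -0.39, 0.39 and 1.60 in PH90 livers. Every pair of groups overlapped, and sham rats 45 and 141 alone set the extremes of all 30 livers. PH90 livers differed from sham livers by 0.46 (95% interval -0.39 to 1.31, limma adjusted p = 0.45), an interval wide enough to hold a doubling as well as a small decrease. Nr1d1 was called in none of the 10 comparisons.

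The output factors Dbp and Tef bind the same D-box, yet their values differed in pattern. Dbp (probe set 17616470) stayed between -0.31 and 0.32 in all 30 livers, with group medians of -0.04 in unoperated, 0.10 in sham, 0.09 in PH30, -0.07 in PH70 and 0.01 in PH90 livers. It was called in none of the 10 comparisons, and PH90 livers differed from sham livers by -0.04 (95% interval -0.23 to 0.15). Signal over background is unknown for its 1 probe set, so these small differences cannot be read as a steady level of Dbp. Tef (probe set 17830985) had lowest, median and highest values of -0.13, 0.03 and 0.09 in unoperated livers, -0.13, 0.30 and 0.53 in sham livers, -0.28, 0.22 and 0.37 in PH30 livers, -0.25, -0.08 and 0.14 in PH70 livers, and -0.66, -0.49 and -0.12 in PH90 livers. PH90 livers were the lowest group, and PH90 rat 87 at -0.12 was the 1 liver of that group that reached the sham range, whose lowest rat was 112 at -0.13.

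Tef averaged -0.46 ± 0.20 in PH90 livers and 0.29 ± 0.24 in sham livers (SD, n = 6 each), a difference of -0.74 (SE 0.10, limma adjusted p = 9.9e-07). It was the 1 clock gene called between PH70 and sham livers, lower in PH70 livers by a log2 difference of -0.37 (SE 0.10, limma adjusted p = 0.011), with all 6 PH70 livers below the sham mean. That 1 of 9 stands beside 18.6% of all genes called between PH70 and sham livers. PH90 livers were lower in Tef than PH70 livers by -0.37 (SE 0.10, limma adjusted p = 0.0076) and than PH30 livers by -0.62 (SE 0.10, limma adjusted p = 2.2e-05). Against unoperated livers, Tef was lower in PH90 livers by -0.46 (SE 0.10, limma adjusted p = 6.3e-04) and differed by -0.09 in PH70 livers (SE 0.10, limma adjusted p = 0.66). The sham livers themselves differed from unoperated ones in Tef by 0.28 (SE 0.10, limma adjusted p = 0.25).

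Clock (probe set 17689370), the activator, had lowest, median and highest values of -0.01, 0.16 and 0.24 in unoperated livers, -0.21, -0.02 and 0.09 in sham livers, -0.31, -0.22 and 0.18 in PH30 livers, -0.15, -0.03 and 0.11 in PH70 livers, and -0.16, 0.12 and 0.25 in PH90 livers. PH30 livers had the lowest median, and PH30 rat 95 was the highest of that group. Clock was lower in PH30 than in unoperated livers by -0.27 (SE 0.08, limma adjusted p = 0.022) and higher in PH90 than in PH30 livers by 0.22 (SE 0.08, limma adjusted p = 0.029). The PH30 call was lost without PH30 rat 65 or 98 or unoperated rat 148 or 150 (adjusted p up to 0.062). The PH90 call was lost without any 1 of PH30 rats 65, 98, 130 and 140 or PH90 rats 61, 106 and 111 (adjusted p up to 0.13 over all alternatives). Clock was called in no comparison with sham livers.

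**Figure D2:**
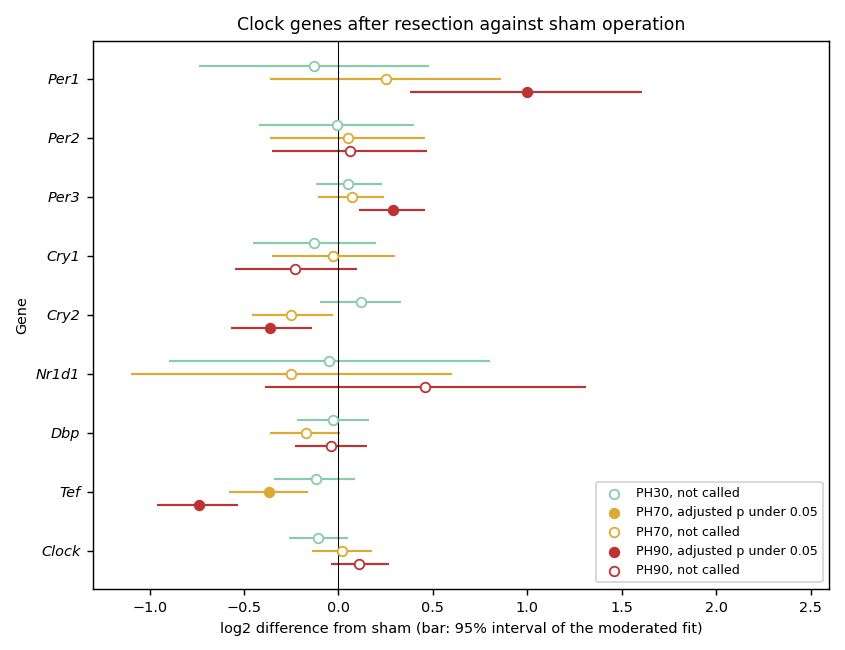
Log2 difference of each clock gene from sham (horizontal axis, points, with the 95% interval of the limma fit as bars) after removal of 30%, 70% or 90% of the liver, with filled points for an adjusted p below 0.05. Filled points are Per1, Per3, Cry2 and Tef in PH90 and Tef in PH70, and the widest bars are those of Nr1d1.

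After the 30% resection, 0 of the 9 clock genes were called against sham livers by limma, beside 5.53% of all genes. An unadjusted p below 0.05 was found for 0 of the 9, beside 3656 of all 18166 genes. The differences from sham ran from -0.13 for Per1 and Cry1 to 0.12 for Cry2. Sham against unoperated livers likewise gave 0 called clock genes, beside 0.738% of all genes, and 4 with an unadjusted p below 0.05: Per2 (0.43, SE 0.20), Cry1 (0.48, SE 0.16), Tef (0.28, SE 0.10) and Clock (-0.17, SE 0.08), with limma adjusted p of 0.42, 0.18, 0.25 and 0.41. In that comparison 2007 of all 18166 genes had an unadjusted p below 0.05. Leaving out sham rat 45, the lowest Cry1 value of its group, gave 1 call, Cry1 at 0.62 (limma adjusted p = 0.041). That removal must enlarge the Cry1 difference, so the call is no support for it. The unoperated rats carry the highest rat numbers (145 to 152, against 37 to 143 in operated rats), so the order of the numbers and the lack of an operation cannot be told apart.

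Against unoperated livers, the counts of called clock genes were 1 of 9 for PH30 (Clock, beside 9.85% of all genes), 1 for PH70 (Cry1, beside 18.5%) and 4 for PH90 (Per1, Per3, Cry2 and Tef, beside 33.8%). These comparisons share their unoperated rats, as those above share their sham rats. Between resections, PH90 against PH30 gave 5 called clock genes, beside 31.5% of all genes: Per1, Per3 and Clock higher, Cry2 and Tef lower in PH90 livers. The Per3 difference there, 0.23 (SE 0.09, limma adjusted p = 0.036), was lost without PH30 rat 65, 99 or 140 or PH90 rat 61 or 111 (adjusted p up to 0.22 over all alternatives). PH90 against PH70 gave 1, Tef, beside 24.5%. PH70 against PH30 gave 0, beside 2.27%, with 2 genes at an unadjusted p below 0.05, beside 3180 of all 18166 genes. Without PH30 rat 95 it gave 2, Cry2 at -0.42 (limma adjusted p = 0.0071) and Tef at -0.33 (limma adjusted p = 0.023), both lower in PH70 livers. Rat 95 was the lowest PH30 rat for both genes, so its removal must enlarge both differences and the calls are no support for them.

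A moderated F test for any difference between the 3 resections called Per1 (limma adjusted p = 0.011), Cry2 (0.0013) and Tef (8.6e-05), 3 of 9 genes beside 32.4% of all genes. Over the 5 groups it called these 3 with Per3 and Clock, 5 of 9 beside 42.7%. The order of the group means for Tef was sham (0.29), PH30 (0.16), unoperated (0.01), PH70 (-0.08) and PH90 (-0.46), and of the neighbours in that order only PH70 and PH90 differed by the test. For Per1 the order was PH90 (1.05), PH70 (0.30), sham (0.05), PH30 (-0.08) and unoperated (-0.53), with no neighbouring pair called by limma.

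Some whole-array measures moved with these groups. The SD of an array's values over all genes was 0.21 to 0.23 in unoperated, 0.20 to 0.22 in sham, 0.19 to 0.30 in PH30, 0.22 to 0.30 in PH70 and 0.36 to 0.55 in PH90 livers. When every array was given the same distribution by quantile normalization, Per1 in PH90 against sham livers measured 0.65 (SE 0.34, limma adjusted p = 0.17) and Per3 measured 0.23 (limma adjusted p = 0.056), while Cry2 and Tef stayed called. The same setting gave 0.81 for Per1 in PH90 against PH30 livers (limma adjusted p = 0.089) and -0.24 for Tef in PH90 against PH70 livers (limma adjusted p = 0.23), neither of which was then called. With runs of neighbouring rat numbers as a block among the operated rats, Per3 in PH90 against sham livers (0.22, limma adjusted p = 0.058) and Tef in PH90 against PH70 livers (-0.26, limma adjusted p = 0.17) also lost their calls. PH30 rat 95 and PH70 rat 139 correlated with the rest of their own groups at a mean r of -0.113 and -0.114, the next lowest array being PH30 rat 140 at 0.180. Without both rats the 4 calls of PH90 and the Tef call of PH70 against sham (-0.41, SE 0.09, limma adjusted p = 0.0012) were kept, whereas the Cry1 call of PH70 against unoperated livers was lost (0.45, limma adjusted p = 0.059).

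In the wider loop, Bmal1, Npas2 and Nfil3 were lower and Csnk1e, Cipc, Fbxw11 and Timeless higher in PH90 than in sham livers. These 7 were the called genes among 15 measured partners, 4 higher beside 19.9% of all genes and 3 lower beside 14.7%, and the median difference of the 15 was 0.12. Bmal1, the partner of Clock, lay between -1.39 and -0.47 with a median of -0.81 in PH90 livers and between -0.11 and 0.40 with a median of 0.08 in sham livers. The groups did not overlap, which held for 20.6% of all genes, and Bmal1 was lower by -1.02 (SE 0.10, limma adjusted p = 1.6e-09). Its medians in unoperated, PH30 and PH70 livers were 0.19, -0.03 and -0.01, and the 6 PH90 livers were the lowest of all 30.

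Npas2, which can stand in for Clock, lay between -1.54 and -0.13 with a median of -1.11 in PH90 livers and between -0.22 and 0.50 with a median of 0.18 in sham livers, lower by -1.15 (SE 0.19, limma adjusted p = 1.5e-05). Unoperated livers held the highest Npas2 values, 0.75 to 1.23, and PH90 livers differed from them by -1.99 (SE 0.19, limma adjusted p = 1.4e-09). Sham livers were lower in Npas2 than unoperated ones by -0.83 (SE 0.19, limma adjusted p = 0.03) with no overlap (2.84% of all genes), the 1 partner called in that comparison. That call was lost without any 1 of 9 rats (sham rats 41, 45, 112, 114 and 141, unoperated rats 148, 150, 151 and 152), with adjusted p up to 0.089. Nfil3, the repressor at the D-box, was lower in PH90 than in sham livers by -0.62 (SE 0.14, limma adjusted p = 5.0e-04), without overlap (20.6% of all genes).

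Csnk1e, a kinase that phosphorylates period proteins, was higher in PH90 than in sham livers by 0.60 (SE 0.11, limma adjusted p = 2.9e-05). The groups did not overlap (20.6% of all genes), with the lowest PH90 liver at -0.02 and the highest sham liver at -0.04. Cipc, an inhibitor of CLOCK, was higher by 0.37 (SE 0.09, limma adjusted p = 0.0016) and Fbxw11, a ubiquitin ligase subunit for period proteins, by 0.31 (SE 0.07, limma adjusted p = 0.001). Timeless, which acts at the replication fork, was higher by 0.55 (SE 0.19, limma adjusted p = 0.027), and this call was lost without PH90 rat 39, 43 or 111 or sham rat 112 or 114. It was also lost with runs of neighbouring rat numbers as a block (0.49) and with rat number as a linear covariate (0.44), and the adjusted p over all alternatives reached 0.1.

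After the 70% resection 2 partners of 15 were higher against sham, beside 10.5% of all genes, and 1 was lower, beside 8.15%. Timeless was higher by 1.17 (SE 0.19, limma adjusted p = 6.8e-05), 6 of 6 rats above all sham livers, where groups without overlap made up 7.34% of all genes. All 13 measured proliferation genes were also higher in PH70 livers (median difference 2.56), beside 10.5% of all genes, while 3 of 13 were higher in PH90 livers, beside 19.9%, and their part in the Timeless value was not tested. Rora, the receptor that activates Bmal1, was lower in PH70 than in sham livers by -0.41 (SE 0.11, limma adjusted p = 0.0065), without overlap, and it lost the call with runs of neighbouring rat numbers as a block (-0.35, limma adjusted p = 0.064). In Rora PH90 livers exceeded PH70 livers by 0.67 (SE 0.11, limma adjusted p = 1.9e-05). Csnk1e was higher in PH70 than in sham livers by 0.30 (SE 0.11, limma adjusted p = 0.043), a call lost without any 1 of 9 rats (PH70 rats 37, 58, 59, 97 and 136, sham rats 45, 112, 141 and 143, adjusted p up to 0.23 over all alternatives). After the 30% resection 0 of the 15 were called by limma, beside 5.53% of all genes. An unadjusted p below 0.05 was found for 2 of them, beside 3656 of all 18166 genes.

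**Figure D3:**
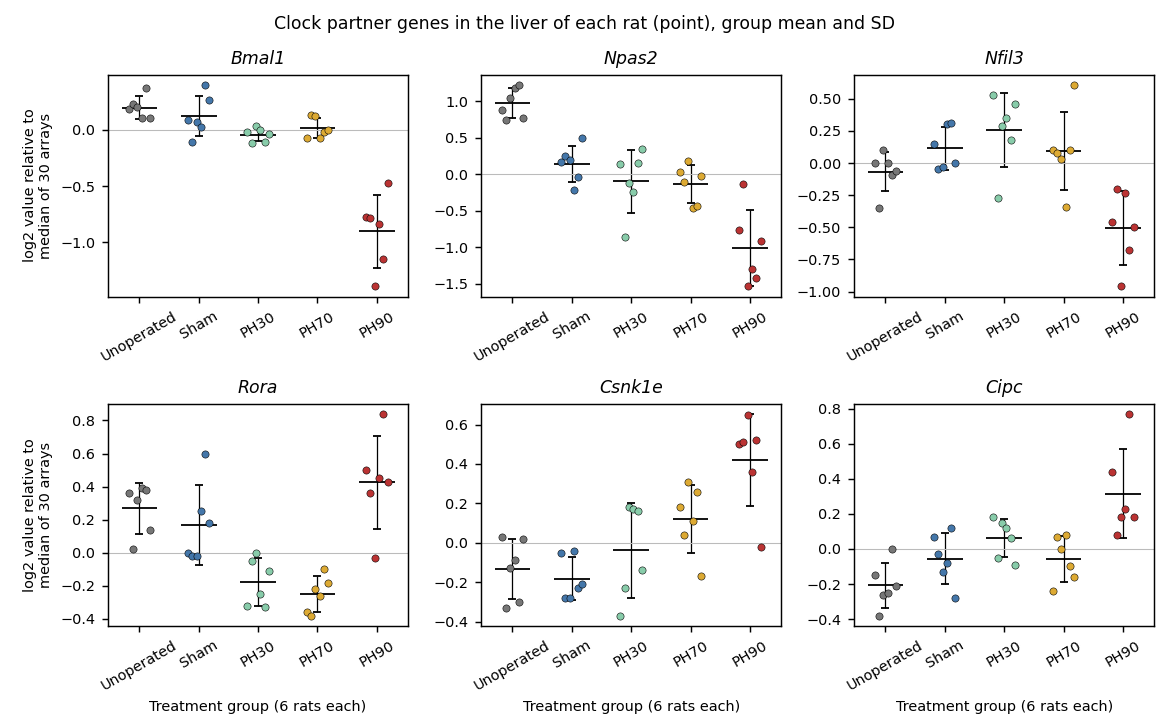
Log2 value of 6 partners of the clock genes relative to each gene's median over 30 arrays (vertical axis) in every rat (points) of the 5 groups (horizontal axis), with the group mean and SD. Bmal1 lies between -1.39 and -0.47 in all 6 PH90 livers and at -0.12 or above in the other 24 livers, while Rora has its lowest medians in PH30 and PH70 livers.

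Genes known as clock outputs in rodent liver were called in 10 of 16 cases after the 90% resection against sham, beside 34.6% of all genes. Of these, 6 were higher, beside 19.9%, and 4 lower, beside 14.7%. This list, the partners and the lists below were chosen with earlier results of these data known. Their counts beside the shares of all genes are therefore no independent support for a change in a list. Cyp7a1, the rate-limiting enzyme of bile acid synthesis, was lower by -3.40 (SE 0.49, limma adjusted p = 1.3e-06) and Ppara, the fatty acid receptor of the fasting liver, by -1.41 (SE 0.26, limma adjusted p = 6.5e-05). Pnpla2, a triglyceride lipase, was higher by 1.45 (SE 0.11, limma adjusted p = 2.2e-11) and Rgs16, a regulator of G protein signalling, by 1.18 (SE 0.46, limma adjusted p = 0.046). After the 70% resection 3 of 16 were called, near the 18.6% of all genes, with 2 higher (10.5%) and 1 lower (8.15%). Among them were Wee1, a cell cycle kinase with E-boxes in its mouse promoter, higher by 1.30 (SE 0.23, limma adjusted p = 1.6e-04) and Ppara lower by -0.97 (SE 0.26, limma adjusted p = 0.0082). After the 30% resection 0 of 16 were called by limma, beside 5.53% of all genes. An unadjusted p below 0.05 was found for 1 of them, beside 3656 of all 18166 genes. The alternative settings were run for the clock genes and partners only, so calls of the output genes and of the lists below were not checked under them. Over all genes, quantile normalization gave 5158 calls between PH90 and sham livers in place of 6290.

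Genes that answer signals known to reset the liver clock differed in the same comparison, and their part in the clock gene values was not tested. Over all genes 19.9% were higher and 14.7% lower in PH90 than in sham livers. Of 11 genes that respond to glucocorticoids, 4 were higher and 4 lower in PH90 than in sham livers. Fkbp5 was 1.63 higher and Zbtb16 1.18 higher, whereas Dusp1 and Nr3c1, the glucocorticoid receptor gene, were each lower by -1.19. Of 12 genes of fasting and feeding, 5 were higher and 2 lower beside the same shares, among them Ppargc1a (1.41), Irs2 (1.10), Srebf1 (-1.68) and Pklr (-2.03). Of 6 temperature-sensitive genes 2 were higher and 1 lower beside these shares, and Rbm3, which rises in the cold, was 3.19 higher (SE 0.16, limma adjusted p = 3.8e-15). Hspa8 was 0.54 higher (limma adjusted p = 6.6e-04) and Dnajb1 was lower by -0.28. The other cold-inducible gene of the list, Cirbp, was not called (-0.21, limma adjusted p = 0.14), and the median difference of the 6 genes was 0.04.

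Some markers of other cells were called in the same comparison, in which 19.9% of all genes were higher and 14.7% lower. In PH90 against sham livers 5 of 9 macrophage markers were lower and 1 higher, 3 of 7 neutrophil markers were higher, 3 of 7 lymphocyte markers and 3 of 4 red cell markers were lower, and 2 of 7 hepatocyte markers were higher and 2 lower. The mean of the macrophage list ran from -0.69 to -0.03 in PH90 livers and from -0.04 to 0.25 in sham livers. The part of these cells in the clock gene values was not tested.

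Rats treated alike differed most in Nr1d1, Per1, Per2 and Cry1. The SD between rats of a group, pooled over the 5 groups, was 0.77 for Nr1d1, larger than that of 99.8% of all genes. It was 0.55 for Per1 (99% of genes smaller), 0.37 for Per2 (96.6%) and 0.29 for Cry1 (93.1%), against a median of 0.15 over all genes. Tef and Cry2 had 0.19 each, Dbp 0.16, Per3 0.15 and Clock 0.13, so Clock lay below the median of all genes. The groups accounted for 68.9% of the variance of Tef and 11.9% of that of Nr1d1, the extremes among the 9 genes, against a median of 29.2% over all genes and 85.7% for Bmal1.

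**Figure D4:**
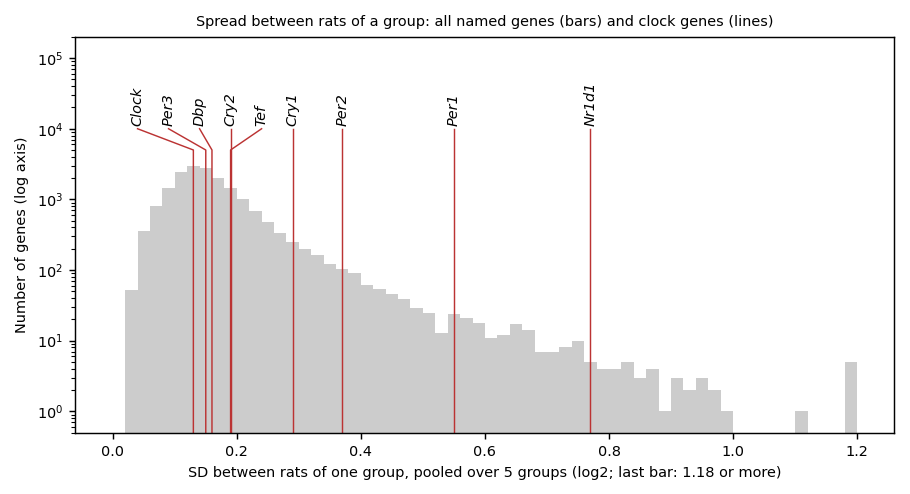
Number of genes (vertical log axis) by the SD between rats of the same group, pooled over the 5 groups, on the log2 scale (horizontal axis), as bars for all 18166 named genes, with the 9 clock genes as lines. Nr1d1 at 0.77, Per1 at 0.55, Per2 at 0.37 and Cry1 at 0.29 lie in the upper tail, and Clock at 0.13 lies left of the median of 0.15.

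The rats at the ends of these ranges were the same for several genes. In each of the 5 groups the rat with the highest Nr1d1 had the lowest Cry1: unoperated rat 152 (1.44 and -0.78), sham rat 45 (2.15 and -0.59), PH30 rat 130 (1.08 and -0.56), PH70 rat 37 (0.47 and -0.25) and PH90 rat 43 (1.60 and -0.62). Sham rat 45 also had the lowest Per2 of all 30 livers at -0.70. Sham rat 141 lay at the opposite end, with -1.32 for Nr1d1, 0.46 for Cry1, 0.94 for Per2 and 1.49 for Per1.

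Deviations from the group means, those of the extreme rats included, were correlated over the 30 rats for the 45 pairs of the 9 genes and Bmal1, with permutation tests within groups (two-sided, 100000 permutations, adjusted over the 45 pairs). These deviations do not contain the group differences. Of the 45 pairs 3 were called, 1 positive and 2 negative. Cry1 and Nr1d1 had r = -0.85 (permutation p = 1e-05, the smallest that these permutations can give, adjusted p = 4.5e-04) and rho = -0.63 (permutation p = 7.9e-04, adjusted p = 0.036). Without the 2 rats farthest from the median of the first gene r was -0.76, and within single groups it ran from -0.94 in sham to -0.78 in PH90 livers.

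Per2 and Nr1d1 had r = -0.66 (permutation p = 9.5e-04, adjusted p = 0.021) and rho = -0.51 (permutation p = 0.0084, adjusted p = 0.082). Without the 2 farthest rats r was -0.44, and within groups it ran from -0.73 to -0.63. Per2 and Cry1 had r = 0.56 (permutation p = 0.0028, adjusted p = 0.042) and rho = 0.45 (permutation p = 0.022, adjusted p = 0.11), and r was 0.36 without the 2 farthest rats. Neither of these relations of Per2 passed by rank. Leaving out the farthest rats narrows the range of the first gene, which tends to lower r. The smaller r therefore cannot tell a weaker relation from a narrower range. With the runs of neighbouring rat numbers as a block among the 24 operated rats, the 3 values of r were -0.83, -0.70 and 0.62. Bmal1 was in none of the called pairs, and Nr1d1 was in 2 of the 3. The labels give no hour for the rats, and the part of time of day in these relations was not tested.

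**Figure D5:**
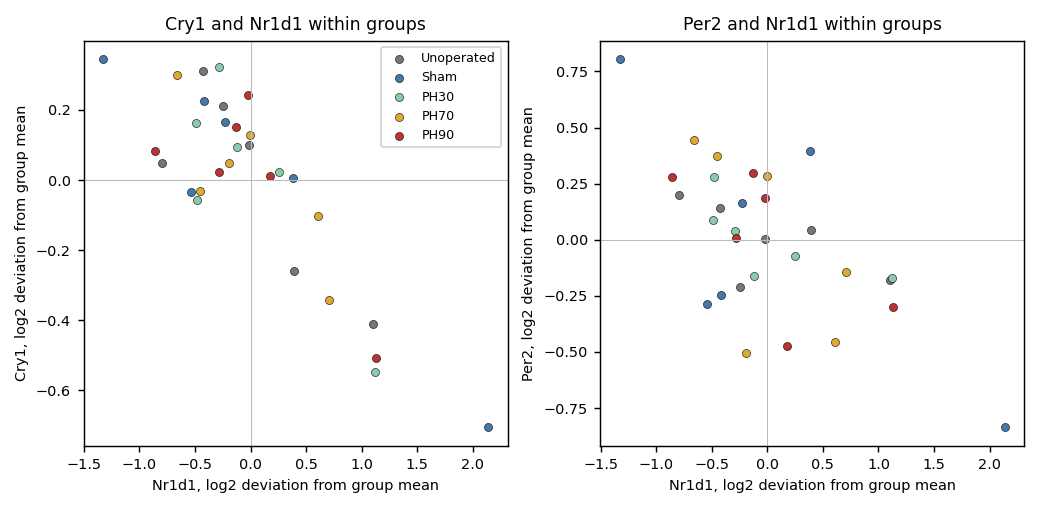
Deviation of Cry1 (left) and Per2 (right) from the group mean (vertical axes, log2) against that of Nr1d1 (horizontal axes, log2) in 30 rats, coloured by group. Rats with more Nr1d1 than their group have less Cry1 (r = -0.85) and less Per2 (r = -0.66), with sham rats 45 and 141 at the ends.

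For each clock gene the named genes with the most similar deviations over the 30 rats were listed by Pearson r, outside the clock genes and their partners. These values describe the top of 18166 genes and carry no test. Per1 was closest to Rasgef1b (r = 0.86, rho = 0.80, and 0.76 without the 2 farthest rats), Zfp354a (r = 0.81) and Mfsd2a (r = 0.78). Clock was closest to Dyrk1a (r = 0.82), Zfp639 (r = 0.80) and Nploc4 (r = 0.80). For the other 7 genes the highest r was lower: 0.74 for Tef with Sdf4, 0.72 for Cry2 with St8sia5, 0.72 for Nr1d1 with the gene annotated as Mir1, 0.70 for Dbp with Sertm1, 0.70 for Per3 with Nme8, 0.68 for Per2 with Dlg4 and 0.67 for Cry1 with Tnxa-ps1.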

How the data were processed

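RNA from 30 rat livers was hybridised to Rat Gene 2.0 ST arrays of Affymetrix. The authors deposited values made with RMA in Affymetrix Expression Console, per the submitters' processing notes, with versions not given in the sources used here. That the values are on the log2 scale is inferred from the use of RMA. The deposited log2 values of 29489 probe sets ran from -6.04 to 5.44 with a median of 0 for each probe set (within 5e-07), so each had been centred, which removes levels and the use of a filter on low values. Of the probe sets 18511 had exactly 1 symbol, 575 several and 10403 none. The mean of a gene's probe sets gave 18166 genes, and the Entrez ID of 18394 probe sets was in the RefSeq table of GRCr8, which changed 0 symbols. Signal over background is unknown, and 6 arrays per group limit the precision.

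The tests used limma 3.58.1 (R 4.3.3) on all 30 arrays, 1 mean per group, two-sided, with Benjamini-Hochberg adjustment (25 residual and 3.71 prior degrees of freedom), in 10 pairwise comparisons and 2 F tests. A difference is the first-named group's mean minus that of the second, with its moderated standard error (SE). The steps were tested on simulated data. The members and lists were chosen with earlier results of these data known. The rule for naming genes opened to naming every clock gene and partner, up to 4 called genes of each other list by size, and the 3 genes most like each clock gene. The partners Usp2, Btrc, Csnk1d, Ciart and Bhlhe41 are not described above. Partner calls against unoperated livers are given there only for Npas2. Among those left out, Usp2 was higher in PH70 and PH90 livers and Rora was lower in PH30 and PH70 livers. Of 14 lists, the cholangiocyte (1 of 6 higher and 1 lower), stellate (2 of 6 higher and 2 lower) and endothelial (1 of 3 lower) markers are given here for PH90 against sham. Over all genes 19.9% were higher and 14.7% lower in that comparison. Correlations were adjusted over 45 pairs, because Nr1d2 was not analysed.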

Additional observations from a re-analysis of the deposited data

Results flagged for a closer look

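In groups of 6 rats, 11 of 120 combinations of a gene and a group held 1 rat farther from the others than Dixon's 95% critical value allows, among them 7 of the 45 of the clock genes. Chance gives about 1 in 20 for normally distributed values. The rule was not applied to all genes, and some rats recur below, so the counts cannot be read as an excess in clock genes. Per1 was 1.49 in sham rat 141, with the others at -0.56 to 0.01, and 0.41 in unoperated rat 147, with the others at -0.87 to -0.58. Per3 was 0.62 in PH90 rat 61, with the others at 0.02 to 0.21. Cry1 was -0.62 in PH90 rat 43, with the others at -0.10 to 0.13, and -0.59 in sham rat 45, with the others at 0.08 to 0.46. PH30 rat 95, whose array stands apart from its group, had Cry2 at -0.07 (the others at 0.24 to 0.39) and Tef at -0.28 (the others at 0.18 to 0.37). Among the partners, Timeless was 0.01 in PH70 rat 139, the other array that stands apart, with the others at 0.97 to 1.23. Rorb was 0.43 in PH30 rat 65 (the others at -0.10 to 0.04) and -0.10 in PH70 rat 58 (the others at 0.00 to 0.03). Bhlhe40, a repressor induced by CLOCK, was -0.88 in unoperated rat 147, with the others at 0.20 to 0.39, in the rat that was also apart in Per1.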

How the results depend on the processing

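Of 17 called differences of clock genes 9 kept their call and sign under every alternative tried, and 0 results were reversed. Of 73 differences not called 12 became called under some alternative, and 20 changed sign under some alternative without being called. Only moves that were large in proportion to the count of called clock genes are listed here, smaller ones are left out, and the cause was not tested. Quantile normalization gave 2 in place of 4 for PH90 against sham, 3 in place of 1 for PH70 against unoperated, 1 in place of 0 for PH70 against PH30, 2 in place of 5 for PH90 against PH30 and 0 in place of 1 for PH90 against PH70. The calls over all 18166 genes moved as well. In the same order they were 5158 in place of 6290, 3914 in place of 3358, 769 in place of 413, 4005 in place of 5715 and 2003 in place of 4454. Fitting only the groups compared gave 2 for PH30 and 2 for PH70 against unoperated and 3 for PH90 against PH30. Over all genes that setting gave 1919 in place of 1789, 3773 in place of 3358 and 4753 in place of 5715. Array weights gave 4 for PH70 against unoperated and 2 for PH70 against PH30, and leaving out rats 95 and 139 gave 2 for PH70 against PH30. The matching counts over all genes were 4717 in place of 3358, 2178 in place of 413 and 2420 in place of 413. All probe sets tested singly gave 0 for PH70 against unoperated, with 3996 of 29489 probe sets called in place of 3358 of 18166 genes. Runs of rat numbers as a block gave 2 for PH70 against sham and 3 for PH90 against PH30, and rat number as a linear covariate gave 2 for PH90 against PH70. Among all genes the calls there were 1962 in place of 3386, 4593 in place of 5715 and 4236 in place of 4454. By Spearman's rho 1 pair was called in place of 3.

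Leaving out 1 rat at a time gave 0 for PH30 against sham, 1 to 2 for PH70 against sham, 4 for PH90 against sham and 0 to 1 for sham against unoperated. It gave 0 to 1, 0 to 2 and 4 to 5 for PH30, PH70 and PH90 against unoperated. It gave 0 to 2 for PH70 against PH30, 3 to 5 for PH90 against PH30 and 1 to 3 for PH90 against PH70. The F test over 3 resections gave 3 to 5 and over 5 groups 4 to 6. Counts over all genes are not given for the fits that leave out 1 rat. No paired analysis was possible because the groups share no rat numbers. With 6 rats a group, a difference in Nr1d1 had an SE of 0.42, so only large differences in it could pass. The low-value filter could not be applied to centred values.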

Other observations

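Between sham and unoperated livers 0 of the 9 clock genes were called by limma. An unadjusted p below 0.05 was found for 4 of them, beside 2007 of all 18166 genes. In the same comparison 2 of 16 clock output genes were higher and 0 lower, beside 0.738% of all genes called in either direction. Por, the electron donor of the cytochrome P450 enzymes, averaged -0.01 ± 0.36 in sham and -0.76 ± 0.17 in unoperated livers (SD, n = 6 each), a difference of 0.76 (SE 0.16, limma adjusted p = 0.019). Upp2, a uridine phosphorylase of the liver, averaged 0.39 ± 0.44 in sham and -0.50 ± 0.29 in unoperated livers, a difference of 0.89 (SE 0.21, limma adjusted p = 0.038). All 6 sham livers lay above all 6 unoperated livers for both genes, and 2.84% of all genes did not overlap between these groups. Por was also 0.88 higher in PH90 than in sham livers (SE 0.16, limma adjusted p = 6.2e-05).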
